A study of Mus musculus with 8 samples.

Results

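The D-type cyclins, their kinases CDK4 and CDK6 and the inhibitors of these kinases were examined as mRNA in mouse CD8+ T cells treated with diisopropylamine dichloroacetate (DADA), an inhibitor of pyruvate dehydrogenase kinase. The set held 10 of the 22520 genes and assembled transcripts in the table, taken by gene symbol: *Ccnd1*, *Ccnd2*, *Ccnd3*, *Cdk4*, *Cdk6*, *Cdkn1a*, *Cdkn1b*, *Cdkn2a*, *Cdkn2c* and *Cdkn2d*. All 8 libraries came from spleen CD8+ T cells, isolated by magnetic negative selection and stimulated in culture until harvest with anti-CD3, anti-CD28 and IL-2. From day 3 to the harvest on day 6, 4 cultures received 40 µM DADA and 4 received an equal volume of its solvent, DMSO. The labels give no strain, sex or age for these spleens and do not say whether the 4 biological replicates of a group were separate animals. The paper's methods list male C57BL/6J mice, 6 to 8 weeks old, among its animals, but do not tie a strain to these libraries. Their genotype field reads control or model, and no genetic change is described.

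D cyclins bind CDK4 or CDK6 early in G1 and direct them to phosphorylate the retinoblastoma protein and its relatives, which then release E2F factors to transcribe S phase genes. INK4 proteins, encoded by *Cdkn2a*, *Cdkn2c* and *Cdkn2d*, bind CDK4 and CDK6 and keep D cyclins off them. CIP/KIP proteins, encoded by *Cdkn1a* (p21) and *Cdkn1b* (p27), inhibit cyclin-CDK2 complexes, and they also bind cyclin D-CDK4/6 complexes and can help to assemble them. In T cells, receptor and IL-2 signals raise D cyclins, and p27 is abundant in resting cells.

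Transcript levels were given as FPKM, a fragment count scaled by transcript length and library size, so that levels of different genes could be compared per length. Summed over all rows, FPKM ranged from 450473 to 456939 in the DMSO libraries and from 438299 to 449480 in the DADA libraries. Read counts were not analysed here. Steps between the lowest values gave an estimate of 13660000 to 16420000 fragments per DMSO library and 15120000 to 18660000 per DADA library. Each estimate was the depth, of many tried, with the largest share of low values within 0.1 of a whole fragment. That share was 39.3% to 44.5%. Evenly spread values would give 20% at a depth fixed beforehand, so the comparison does not test the estimate. The 5 CD8 T cell markers with a row (*Cd8a*, *Cd8b1*, *Cd3d*, *Cd3e* and *Cd3g*) summed to 674 to 680.1 FPKM with DMSO and 776 to 805 FPKM with DADA. *Pax5*, *Csf1r*, *Adgre1*, *Hbb-bs*, *Col3a1* and *Cdh5*, which mark B, myeloid, erythroid, stromal and endothelial cells, were listed at 0 in every library. Of the other B cell markers reported, *Cd79b* was at 2.42 to 3.47 FPKM with DMSO and 2.18 to 2.90 FPKM with DADA, while *Cd79a* and *Ms4a1* reached at most 0.190 and 0.0288 FPKM. The summed erythroid list reached at most 0.426 FPKM. The myeloid list, of which only *Cd68* exceeded 1 FPKM, was at 3.51 to 3.99 FPKM with DMSO against 5.15 to 5.72 FPKM with DADA. The NK cell list, carried by *Eomes*, which CD8 T cells also express, was at 13.8 to 14.7 against 10.3 to 11.7 FPKM, and the CD4 T cell list at 0.738 to 1.17 against 1.17 to 1.54 FPKM. The part of these markers in the results was not tested.

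Of the 10 genes, 9 reached 1 FPKM in at least 4 libraries and were tested, and *Ccnd1* did not. With DADA, 6 of the 9 rose (*Ccnd2*, *Ccnd3*, *Cdk4*, *Cdkn1a*, *Cdkn1b* and *Cdkn2d*), 2 fell (*Cdk6* and *Cdkn2c*) and *Cdkn2a* was not called, by limma with an adjusted p-value under 0.05. Much of the transcriptome differed between the groups, so these counts stand against a high background: of all genes tested, 66.2% were called, with 30.9% higher and 35.3% lower with DADA. Log2 values here are differences in log2(FPKM + 1). The median was 0.35 over the 9 genes and -0.02 over all genes tested. In 8 of the 9 genes, the DMSO and DADA libraries did not overlap, as in 60.6% of all genes tested. The libraries are bulk RNA, in which fewer cells of a type and less RNA per cell cannot be told apart.

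**Figure D1:**
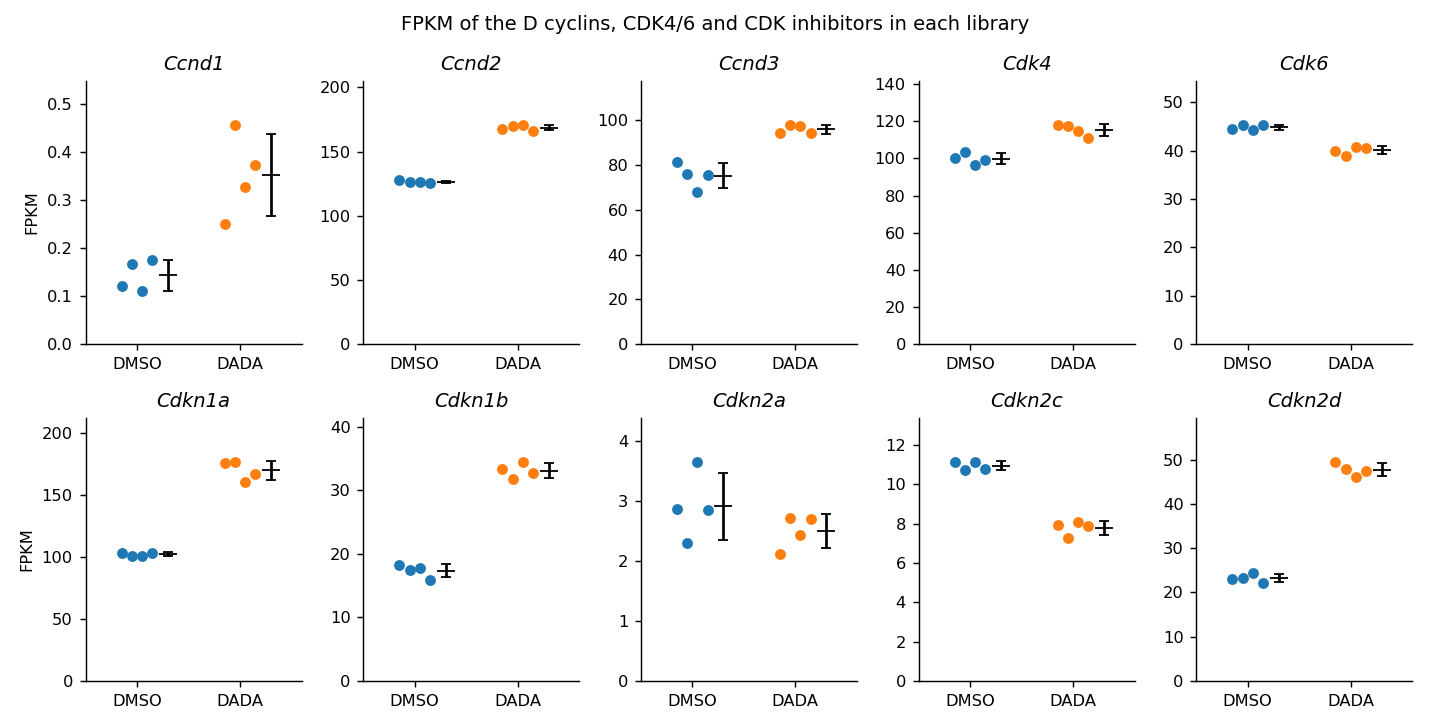
FPKM of each of the 10 genes (vertical axes, each from 0) in the 4 DMSO libraries (blue points) and the 4 DADA libraries (orange points), with the mean and SD of each group as black bars. The groups overlap for *Cdkn2a* and are apart for the other 9 genes, with *Ccnd1* below 0.5 FPKM throughout.

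*Ccnd2* (ENSMUSG00000000184) was the most abundant of the D cyclins. It was at 127, 127, 126 and 125 FPKM in DMSO 1 to DMSO 4 and at 167, 169.8, 171 and 166 FPKM in DADA 1 to DADA 4. Replicates lay close together, and every DADA library was above every DMSO library. The mean rose 1.33-fold, from 126 ± 0.828 to 169 ± 2.08 FPKM (SD, n = 4 each), or 0.41 on the log2 scale (SE 0.0186, adjusted p = 3.29e-08 by limma). For this gene and the other 8 whose groups did not overlap, the two-sided exact permutation test gave p = 0.0286, the smallest value that 4 against 4 libraries allow.

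*Ccnd3* (ENSMUSG00000034165), the other D cyclin of mature T cells, was at 81.5, 76.0, 67.8 and 75.3 FPKM in DMSO 1 to DMSO 4 and at 94.1, 97.9, 97.6 and 94.2 FPKM in DADA 1 to DADA 4. The DMSO libraries spread more than the DADA libraries, with DMSO 3 the lowest, but the groups did not overlap. The mean rose from 75.1 ± 5.63 to 95.9 ± 2.08 FPKM (SD, n = 4 each), or 0.35 on the log2 scale (SE 0.0478, adjusted p = 0.000102 by limma).

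*Ccnd1* (ENSMUSG00000070348), the D cyclin of many epithelial and stromal cells, was close to absent. It was at 0.120, 0.166, 0.112 and 0.174 FPKM in DMSO 1 to DMSO 4 and at 0.251, 0.456, 0.328 and 0.372 FPKM in DADA 1 to DADA 4. All DADA libraries were above all DMSO libraries, at a level that corresponds to about 5.7 to 10.2 fragments with DMSO and 16.5 to 31.4 fragments with DADA on its longest annotated transcript of 3740 bases. The means, 0.143 ± 0.0318 and 0.351 ± 0.0858 FPKM (SD, n = 4 each), differed 2.46-fold. Fitted without the filter, over 16167 genes of which 48.7% were called, *Ccnd1* differed by 0.24 on the log2 scale (SE 0.0452, adjusted p = 0.00243 by limma). The size depends on the scale, and was 0.88 with a pseudocount of 0.1 and 0.16 after quantile normalization. The estimated depth was 13660000 to 16420000 fragments with DMSO and 15120000 to 18660000 with DADA. Of 6 stromal and endothelial markers, only *Pecam1*, which T cells also express, exceeded 1 FPKM, and the sum of the list was 7.15 to 8.36 FPKM with DMSO and 9.44 to 10.5 FPKM with DADA. The part of depth or of these markers in the *Ccnd1* values was not tested.

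Among the D cyclins, *Ccnd2* made up 62.7% ± 1.70 of the summed FPKM with DMSO and 63.6% ± 0.266 with DADA (SD, n = 4 each), and *Ccnd3* 37.2% ± 1.70 and 36.2% ± 0.241. The sum itself went from 202 ± 6.08 to 265 ± 4.15 FPKM. The shares of *Ccnd2* and *Ccnd3* overlapped between the groups, while the sums did not. The share of *Ccnd1* was 0.0574% to 0.0867% with DMSO and 0.0958% to 0.170% with DADA, with no overlap. These sums and shares are descriptions and were not tested.

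The 2 kinases went in opposite directions. *Cdk4* (ENSMUSG00000006728) was at 100.3, 103, 96.7 and 99.0 FPKM in DMSO 1 to DMSO 4 and at 118, 117, 115 and 111 FPKM in DADA 1 to DADA 4. The groups did not overlap, and the mean rose 1.15-fold, from 99.9 ± 2.83 to 115 ± 3.32 FPKM (SD, n = 4 each). This is 0.20 on the log2 scale (SE 0.0287, adjusted p = 0.000127 by limma). *Cdk6* (ENSMUSG00000040274), which is prominent in blood cells, was at 44.4, 45.2, 44.2 and 45.3 FPKM in DMSO 1 to DMSO 4 and at 39.9, 39.0, 40.8 and 40.6 FPKM in DADA 1 to DADA 4. Each DADA library was below each DMSO library. The mean fell from 44.8 ± 0.536 to 40.1 ± 0.821 FPKM (SD, n = 4 each), or -0.16 on the log2 scale (SE 0.0239, adjusted p = 0.000226 by limma). *Cdk6* held 30.4% to 31.4% of the summed FPKM of the kinases in the DMSO libraries and 24.9% to 26.8% in the DADA libraries.

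Both CIP/KIP genes rose. *Cdkn1a* (ENSMUSG00000023067), which encodes p21 and is a classical p53 target, was already abundant, at 104, 101, 101 and 104 FPKM with DMSO. With DADA it was at 176, 177, 161 and 167 FPKM, all well above the DMSO libraries. The mean went from 102 ± 1.41 to 170.3 ± 7.60 FPKM (SD, n = 4 each), a 1.66-fold rise that is 0.73 on the log2 scale (SE 0.0315, adjusted p = 2.46e-08 by limma). *Cdkn1b* (ENSMUSG00000003031), which encodes p27, was at 18.2, 17.5, 17.7 and 15.9 FPKM in DMSO 1 to DMSO 4 and at 33.4, 31.7, 34.5 and 32.7 FPKM in DADA 1 to DADA 4. Its lowest DADA library lay far above its highest DMSO library. The mean went from 17.3 ± 1.01 to 33.1 ± 1.17 FPKM (SD, n = 4 each), a 1.91-fold rise that is 0.90 on the log2 scale (SE 0.0439, adjusted p = 5.77e-08 by limma). *Cdkn1a* made up 85.5% ± 0.796 of their summed FPKM with DMSO and 83.7% ± 1.03 with DADA (SD, n = 4 each).

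The INK4 genes diverged. *Cdkn2d* (ENSMUSG00000096472), which encodes p19INK4d, had the largest rise of the 9 genes tested, from 23.0, 23.3, 24.3 and 22.2 FPKM with DMSO to 49.5, 47.8, 46.0 and 47.3 FPKM with DADA. No DADA library came near the DMSO range. The mean went from 23.2 ± 0.860 to 47.7 ± 1.46 FPKM (SD, n = 4 each), a 2.05-fold rise that is 1.01 on the log2 scale (SE 0.0337, adjusted p = 3.50e-09 by limma). Ranked by log2 fold change from the lowest to the highest, it stood at 96.5% of the genes tested. *Cdkn2c* (ENSMUSG00000028551), which encodes p18INK4c, was at 11.2, 10.7, 11.1 and 10.8 FPKM in DMSO 1 to DMSO 4 and at 7.94, 7.26, 8.05 and 7.88 FPKM in DADA 1 to DADA 4. The groups were apart in the other direction. The mean fell from 10.9 ± 0.228 to 7.78 ± 0.357 FPKM (SD, n = 4 each), or -0.44 on the log2 scale (SE 0.0400, adjusted p = 5.05e-06 by limma).

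*Cdkn2a* (ENSMUSG00000044303) was low, at 2.86, 2.30, 3.66 and 2.85 FPKM in DMSO 1 to DMSO 4 and at 2.12, 2.73, 2.45 and 2.71 FPKM in DADA 1 to DADA 4. The groups overlapped, with means of 2.92 ± 0.560 and 2.50 ± 0.284 FPKM (SD, n = 4 each). Its log2 fold change of -0.16 had a 95% interval of -0.39 to 0.07 and was not called (limma, adjusted p = 0.204; exact permutation test, p = 0.229). After quantile normalization it was -0.28 and called (limma, adjusted p = 0.0354), while the adjusted p-value was up to 0.509 over the alternatives tried. The gene encodes both p16INK4a and p19ARF from different first exons, and its single value per library does not separate them. *Cdkn2d* took 62.0% to 64.2% of the summed FPKM of the INK4 genes in the DMSO libraries and 81.4% to 83.1% in the DADA libraries. The share of *Cdkn2c* was 28.5% to 30.1% with DMSO and 12.6% to 14.3% with DADA.

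**Figure D2:**
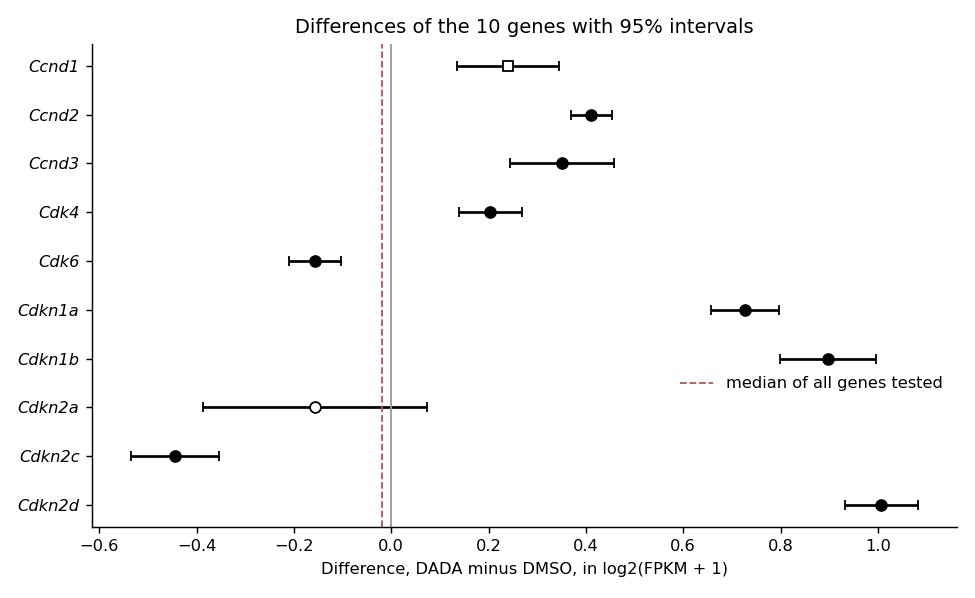
Difference between DADA and DMSO in log2(FPKM + 1) for each gene (horizontal axis), with limma's 95% interval. Filled circles were called, the open circle (*Cdkn2a*) was not, and the open square (*Ccnd1*) was called only when low genes were kept in the fit. *Cdkn2d* is farthest to the right at 1.01 and *Cdkn2c* farthest to the left at -0.44, and the dashed line marks the median of all genes tested, -0.02.

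In order of mean FPKM, the DMSO libraries had *Ccnd2*, *Cdkn1a*, *Cdk4*, *Ccnd3*, *Cdk6*, *Cdkn2d*, *Cdkn1b*, *Cdkn2c*, *Cdkn2a* and *Ccnd1*. Of the neighbours in this order, *Cdkn1a* and *Cdk4* overlapped in range. With DADA, *Cdkn1a* and *Ccnd2* headed the order with overlapping ranges, at 170.3 and 169 FPKM, and *Cdkn2d* stood above *Cdk6*. All other neighbours were apart. Summed over the 5 inhibitors, FPKM went from 157 ± 1.86 to 261 ± 7.81, and summed over *Cdk4* and *Cdk6* from 145 ± 3.17 to 155 ± 2.84 (SD, n = 4 each). The ratio of these sums was 1.04 to 1.12 in the DMSO libraries and 1.62 to 1.71 in the DADA libraries, with no overlap. Such a ratio of mRNA levels says nothing of how the proteins pair, and it was not tested.

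**Figure D3:**
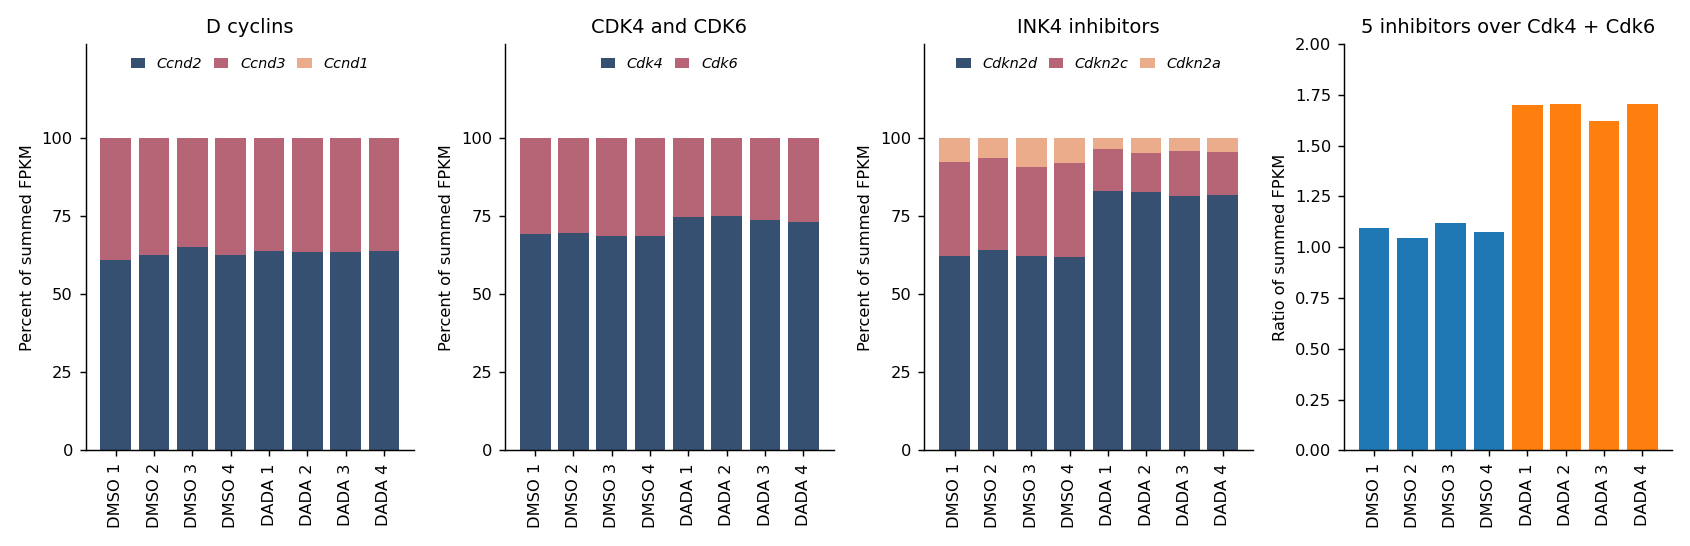
Share of each gene in the summed FPKM of the D cyclins, of *Cdk4* and *Cdk6*, and of the INK4 genes in each library (stacked bars, percent), and the summed FPKM of the 5 inhibitors over that of *Cdk4* and *Cdk6* (last panel; blue DMSO, orange DADA). The shares of *Ccnd2* and *Ccnd3* overlap between the groups, that of *Ccnd1* is too small to see (0.0574% to 0.0867% with DMSO and 0.0958% to 0.170% with DADA), the *Cdkn2d* share is 62.0% to 64.2% with DMSO and 81.4% to 83.1% with DADA, and the ratio is 1.04 to 1.12 with DMSO and 1.62 to 1.71 with DADA.

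Promoter sequences are shown for *Cdk4*, whose window held the most matches, and for *Cdkn1b* and *Cdkn2d*, the pair with the largest rises among the genes tested. They come from RefSeq (GRCm38.p6) and run 5′ to 3′ on the gene's strand from 250 bases before the annotated start to 50 bases after it. Of the 10 genes, 8 had at least 1 window, and *Ccnd1* and *Ccnd2* were not matched. The 3 motifs searched on both strands were the E-box CACGTG, bound by MYC-family factors, the FOXO motif TGTTTAC, and the E2F motif as TTTCCCGC, TTTCGCGC, TTTGCCGC or TTTGGCGC. Capitals mark the matches, which occur in the *Cdk4* window (chr10:127063285-127063584, plus strand) and not in those of *Cdkn1b* (chr6:134920151-134920450, plus strand) and *Cdkn2d* (chr9:21291160-21291459, minus strand).
Cdk4: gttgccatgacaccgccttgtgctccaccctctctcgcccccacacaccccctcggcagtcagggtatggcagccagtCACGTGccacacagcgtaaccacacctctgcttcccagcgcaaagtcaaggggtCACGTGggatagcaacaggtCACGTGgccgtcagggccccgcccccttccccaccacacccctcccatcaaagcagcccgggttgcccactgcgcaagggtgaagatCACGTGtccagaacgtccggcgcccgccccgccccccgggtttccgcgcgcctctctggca
Cdkn1b: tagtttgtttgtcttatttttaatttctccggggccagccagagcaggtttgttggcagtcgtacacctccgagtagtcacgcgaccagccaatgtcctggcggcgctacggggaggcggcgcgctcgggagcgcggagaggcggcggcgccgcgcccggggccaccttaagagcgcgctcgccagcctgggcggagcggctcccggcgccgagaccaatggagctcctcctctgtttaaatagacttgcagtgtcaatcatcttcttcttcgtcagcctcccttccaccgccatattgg
Cdkn2d: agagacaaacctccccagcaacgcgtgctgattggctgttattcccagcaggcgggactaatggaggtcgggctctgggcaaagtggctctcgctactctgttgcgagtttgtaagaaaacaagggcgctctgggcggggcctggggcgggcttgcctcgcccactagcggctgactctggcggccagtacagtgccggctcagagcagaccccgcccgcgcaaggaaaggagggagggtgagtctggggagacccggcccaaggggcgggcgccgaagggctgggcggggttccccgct

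The *Cdk4* window held 4 E-boxes, beginning at -172, -118, -98 and -11 from the start site. Across all 32851 RefSeq windows of this length, 7.15% held at least 1 E-box and 8 windows (0.0244%) held 4 or more. The window of *Cdk6* held 1 E-box at -220, the first of the 2 windows of *Ccnd3* 1 FOXO motif at -243, and the first of the 2 of *Cdkn2a* 1 E2F motif at -99. The second window of *Cdkn2c* held 1 E-box, 35 bases past the start. FOXO motifs occurred in 3.65% and E2F motifs in 2.26% of all windows. The windows of *Cdkn1b* and *Cdkn2d* were rich in G and C, at 62.0% and 66.3%, where the median window had 52.7%. This did not set them apart from genes that did not rise. *Cdk6* was at 66.7%, and the first windows of *Cdkn2c* and *Cdkn2a* were at 73.3% and 77.0%. Among all windows of these genes, only the second of *Cdkn2c*, at 44.0%, lay below the median. A match is a stretch of letters and not a site shown to be bound, and binding was not measured.

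The rest of the G1/S pathway was read from lists of the retinoblastoma family, E2F factors, downstream cyclins and their regulators. Of the pocket proteins, which hold E2F factors back, *Rb1* (16.9 ± 0.789 and 16.5 ± 0.899 FPKM) was not called (SD, n = 4 each; log2 fold change -0.03). *Rbl1* (p107) fell slightly (-0.09 on the log2 scale, adjusted p = 0.0152 by limma), a call lost when libraries were rescaled to the same total (-0.06). *Rbl2* (p130), the pocket protein of resting cells, rose by 0.16 on the log2 scale (limma, adjusted p = 0.00465). Of 10 E2F and DP factors, 2 were higher, 3 lower and 5 not called, where 30.9% of all genes tested were higher and 35.3% lower. *Tfdp1*, the main partner subunit of E2F factors, fell from 183 ± 3.89 to 119 ± 2.46 FPKM (log2 fold change -0.61), and *E2f6*, a repressor, by 0.17 on the log2 scale. *E2f2* rose by 0.14 and *E2f1* by 0.19 on that scale. The groups overlapped for *E2f1* and *E2f6*. For *E2f1*, the adjusted p-value was 0.0321 in the full fit by limma, 0.0587 without the filter and 0.0633 after quantile normalization. It was 0.0840, 0.0762, 0.0846, 0.0718 and 0.0514 without DMSO 3, DMSO 4, DADA 1, DADA 2 and DADA 4 (limma). That of *E2f6* was 0.0247 in the full fit (limma) and 0.0672, 0.0549, 0.0653 and 0.0633 without DMSO 1, DMSO 4, DADA 1 and DADA 3.

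Downstream of the D cyclins, genes of the next cell cycle steps were lower with DADA. All 5 tested genes among cyclin E, cyclin A, CDK2 and its phosphatase *Cdc25a* fell, with a median log2 fold change of -0.38. *Ccna2* (cyclin A2) fell from 79.9 ± 2.18 to 49.5 ± 1.81 FPKM and *Cdk2* from 35.2 ± 1.24 to 26.3 ± 0.448 FPKM (SD, n = 4 each; log2 fold changes -0.68 and -0.40), and *Ccna1*, the germ cell form, was listed at 0 throughout. Among 16 S phase genes that E2F factors drive, 14 fell, *Cdc6* rose and *Cdt1* was not called. The largest falls of these were in *Tyms* (thymidylate synthase), from 23.8 ± 1.43 to 11.7 ± 0.536 FPKM, and *Mcm2*, a subunit of the replicative helicase, from 68.3 ± 0.702 to 44.5 ± 0.361 FPKM. *Cdc6*, which loads that helicase, rose from 12.6 ± 0.160 to 17.8 ± 0.613 FPKM (0.47 on the log2 scale, adjusted p = 8.08e-07 by limma). Of 12 mitotic genes, 11 fell, led by *Cdc20* (-0.79 on the log2 scale) and *Ccnb2* (-0.65). *Mki67* was called higher, at 0.12 on that scale with overlapping groups, and lost the call without DMSO 1, DMSO 2, DADA 3 or DADA 4, where it was 0.11, 0.09, 0.11 and 0.11. The medians of the S phase and mitotic lists, -0.35 and -0.47, compare with -0.02 over all genes tested, of which 35.3% were lower. *Ccnd2*, *Ccnd3* and *Cdk4* were higher in the same libraries in which most S phase and mitotic genes were lower.

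**Figure D4:**
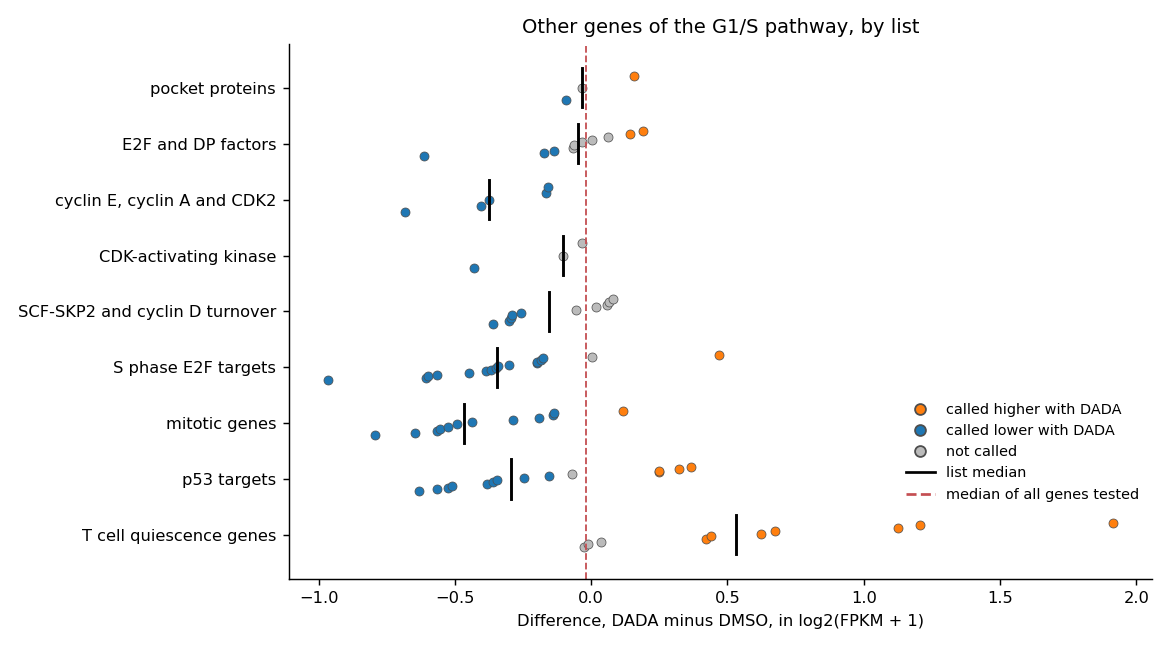
Difference between DADA and DMSO in log2(FPKM + 1) for the tested genes of each pathway list (points; orange called higher, blue called lower, grey not called), with the median of the list as a black line. The S phase and mitotic lists lie mostly left of the dashed median of all genes tested (-0.02), and the quiescence list mostly right of it.

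Of the genes that activate CDKs or turn over cyclins and inhibitors, *Ccnh*, the cyclin of the CDK-activating kinase, fell from 40.9 ± 1.62 to 30.1 ± 1.19 FPKM (SD, n = 4 each; log2 fold change -0.43). Its partners *Cdk7* and *Mnat1* were at -0.03 and -0.10 on the log2 scale and were not called, although *Mnat1* was called without DADA 3 (-0.14). Among 10 genes of the SCF-SKP2 ligase, which degrades p27, and of D cyclin turnover, 5 fell and 5 were not called, where 66.2% of all genes tested were called and 35.3% were lower. *Cks1b*, the cofactor with which SKP2 recognises p27, fell from 83.8 ± 0.397 to 65.2 ± 2.39 FPKM, and *Skp1*, an SCF subunit, from 88.9 ± 1.39 to 72.0 ± 3.59 FPKM (SD, n = 4 each). The remaining CDK inhibitors stayed below 1 FPKM on average, with *Cdkn1c* (p57) at 0.119 ± 0.0595 and 0.172 ± 0.0598 FPKM and *Cdkn2b* (p15) at 0.953 ± 0.220 and 0.684 ± 0.167 FPKM. In the fit without the filter, neither was called (limma, adjusted p = 0.299 and 0.110).

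Genes known as targets of p53, as *Cdkn1a* is, moved in both directions. Of 15 listed, *Trp53* itself included, 14 were tested, of which 4 were higher and 9 lower, with a median log2 fold change of -0.30. Over all genes tested, 30.9% were higher and 35.3% lower, and the median was -0.02. *Bbc3* (PUMA) rose by 0.37 and *Mdm2*, the ligase that degrades p53, by 0.32 on the log2 scale. *Zmat3* and *Phlda3* fell, with log2 fold changes of -0.63 and -0.57. Of 10 genes linked to T cell quiescence, 7 rose and 3 were not called, with a median of 0.53. Of all genes tested, 66.2% were called and 30.9% were higher. Among the 7, *Klf2* was at 0.682 to 1.03 FPKM with DMSO and 2.51 to 3.72 FPKM with DADA. It passed the filter only because of the DADA libraries, and the count and the median include it. Without the filter, 7 genes of the list were called higher, and with a mean of at least 5 FPKM, 6 were. *Ccng2*, an atypical cyclin of non-dividing cells that FOXO factors induce, rose from 10.4 ± 0.448 to 41.9 ± 0.348 FPKM (SD, n = 4 each) or 1.92 on the log2 scale (adjusted p = 4.00e-11 by limma). *Slfn2*, a Schlafen gene needed for T cell quiescence that interferon also induces, rose from 50.1 ± 1.47 to 117 ± 3.47 FPKM (log2 fold change 1.21).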

How the data were processed

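Gene expression was measured by RNA-seq in 8 libraries, 4 per group, assigned by their titles. Expression was deposited as FPKM, with 1 value for each gene in each library, made by the authors from paired reads of 150 bp. The submitters' processing notes name HISAT2 2.0.5, StringTie 1.3.3, Picard 1.41, SAMtools 0.1.18, FastQC 0.11.9 and CASAVA 1.8.2, and the builds GRCm39 and GRCh38. The strand setting is not given in the sources used here, and labels and methods name different library kits. The annotation used here is of another build, GRCm38, so coordinates are given only for the RefSeq promoter windows, in that build. The p-values measure the spread between these libraries only.

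Values were analysed as log2(FPKM + 1) over 10666 genes that reached 1 FPKM in at least 4 libraries, with limma 3.58.1 in R 4.3.3 (1 term for DADA, eBayes with trend, Benjamini-Hochberg over all genes tested, calls at an adjusted p-value under 0.05). This scale understates changes of low genes. An exact permutation test, two-sided, with 70 ways to assign libraries, was added for single genes. On simulated data with far fewer changed genes than were called here, the limma step was checked against known changes. That check does not test the calls in the real data. Depth was estimated with transcript lengths of GENCODE M21, without a test on counts. In Python 3.11.15, figures were drawn with matplotlib 3.10.9.

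The 10 genes and the pathway and marker lists were chosen with earlier results of these data known. Beyond the 10 genes, those named are up to 2 called genes per direction with the largest change in each list, all genes of lists of 3 or fewer, and for the largest rise and fall among those tested the 3 genes most correlated over the libraries. Marker genes are named where they are listed at 0 or bear on a result, and the sum of 1 marker list is not reported here. Alternatives were a pseudocount of 0.1, no filter, a mean of at least 5 FPKM, 3 scalings (TPM, median-ratio and quantile), eBayes without trend, the replicate number as a block, no assembled transcripts, and each library left out in turn.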

Additional observations from a re-analysis of the deposited data

How the results depend on the processing

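Of 167 values of the 10 genes under the alternatives, 166 kept their direction and their side of the threshold. The exception was *Cdkn2a*, called after quantile normalization (log2 fold change -0.28). With each library left out in turn, *Cdkn2a* was between -0.24 and -0.07, *Ccnd3* between 0.30 and 0.39, and *Cdkn2d* between 0.99 and 1.03. The filter at a mean of 5 FPKM left out *Ccnd1* and *Cdkn2a*. Over all genes, the fewest calls under the alternatives were 5741 of 8190 tested, with that filter. The most were 7868 of 16167 tested (48.7%), without a filter, so the counts also reflect how many genes were tested. The numbers in the titles were checked for pairing. In their deviations from the group means, same-numbered DMSO and DADA libraries correlated at -0.12 to 0.095. With 4 libraries per group, such correlations cannot show whether the cultures were paired. With the replicate block, 6995 genes were called and no call among the 10 genes changed. Among 10 SCF-SKP2 and turnover genes, up to 3 were called higher under single alternatives. Read counts were not analysed here, so the counting error of the low values of *Ccnd1* and *Cdkn2a* was not estimated. Levels of mRNA do not give protein levels or the share of cells in each phase.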

Other observations

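The genes whose level was most like that of *Cdkn2d* over the 8 libraries, by Pearson's r of log2(FPKM + 1), were *Calr* (0.999), *Furin* (0.999) and *Flot1* (0.999), which encode an endoplasmic reticulum chaperone, a proprotein convertase and a membrane raft protein. From DMSO to DADA, *Calr* went from 248 to 355 FPKM, *Furin* from 20.3 to 53.4 FPKM and *Flot1* from 10.8 to 35.3 FPKM (means, n = 4 each). For *Cdkn2c* they were *Nek2* (0.998), a centrosomal kinase of dividing cells, *Cep78* (0.997), a centrosomal protein, and *Nup214* (0.997), a nuclear pore protein. *Nek2* went from 17.1 to 10.4 FPKM, *Cep78* from 8.90 to 5.56 FPKM and *Nup214* from 19.4 to 15.4 FPKM. Many genes passed a lower level: of the 10666 genes tested, 1495 had an r above 0.95 with *Cdkn2d* and 1352 with *Cdkn2c*. These correlations are descriptions over libraries that share the treatment, and no test was made. In none of the 20 groups of 4 values of the 10 genes did 1 library lie past the 95% point of Dixon's ratio.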
